A study of Mus musculus with 6 samples.

Results

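The genes described here are Lrp2, 7 further genes of the LDL receptor family (Lrp1, Lrp4, Lrp5, Lrp6, Lrp8, Vldlr and Sorl1) and Lrpap1, which encodes the chaperone of these receptors. They are 9 of the 53465 genes in the count table, found by gene symbol. Lrp2 was chosen by its measured values, since its counts were close to 0 in one group of cell lines, so its values are given as a description without a test. The other 8 were chosen by family and are tested.

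RNA was sequenced from 6 cell lines grown from mouse liver tumours, 3 labelled Myc_Utx and 3 labelled Myc_p53, and the question behind the comparison was how transcription differs once Kdm6a (also called Utx), a histone H3K27 demethylase, is disrupted. All tumours arose in young adult female C57BL/6 mice after hydrodynamic tail vein injection, which carries plasmids into hepatocytes. Every mouse received a Sleeping Beauty transposon with c-Myc behind the EF1a promoter and a plasmid with Cas9 and a guide RNA, directed at Kdm6a for Myc_Utx lines and at the tumour suppressor named in the label for Myc_p53 lines. Each line came from the tumour of a different mouse and was passaged on collagen until no other cell type was seen. Both groups therefore carry the Myc transgene, neither is an untreated control, and effects of the 2 disrupted genes cannot be told apart.

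Library totals ran from 4656103 to 6937497 assigned reads. Of 11510 genes tested with edgeR, 805 (6.99%) were higher and 885 (7.69%) lower in Myc_Utx lines at an adjusted p under 0.05, or 601 higher and 1009 lower with scaling to total counts only and 691 higher and 591 lower with offsets for transcript length. Kdm6a mRNA, with 199, 244 and 220 counts in Myc_Utx lines 2A, 2B and 2D and 440, 348 and 298 in Myc_p53 lines 1, 2 and 3, differed by a log2 fold change of -0.39 (SE 0.22, adjusted p = 0.243, edgeR). Its normalised levels overlapped between groups, so mRNA counts did not check the label, and indels made by Cas9 need not lower an mRNA. The paper reported Kdm6a indels and absent Kdm6a protein in cell lines from such tumours. The lines came from liver tumours, but Alb, the defining hepatocyte transcript, had only 4 to 26 counts per line. Among 8 hepatocyte markers, Krt8 and Krt18 had the most counts, and the summed level of all 8 was 29.9, 94.8 and 47.4 CPM in Myc_Utx lines and 1230, 59.1 and 788.9 CPM in Myc_p53 lines. In Myc_p53 lines 1 and 3 most of it was Krt8 (717 and 446.3 CPM) and Krt18 (471.5 and 314.8 CPM). Of the 8, Hnf4a was lower in every Myc_Utx line. Apoa1, at no more than 5 counts in any line, was higher in every Myc_Utx line. The others, Alb among them, overlapped between groups. CPM here are counts per 1000000 counts of a library after TMM scaling of its size.

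Receptors of the LDL receptor family carry clusters of ligand-binding repeats and beta-propeller domains on the outside of the cell and bind lipoproteins, proteases with their inhibitors, and morphogens. Some of them, such as Lrp1 and Lrp2, mainly take ligands up through clathrin-coated pits, while Lrp5 and Lrp6 are Wnt co-receptors and Vldlr and Lrp8 pass on the reelin signal. In adult liver, Lrp1 is the best known member, as a hepatocyte receptor for chylomicron remnants, whereas Lrp2 (megalin) is best known in the kidney proximal tubule.

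Lrp2 had the widest gap between groups, the chaperone Lrpap1 a log2 fold change above 0 and the receptor Vldlr one below 0. For this reason the stretches before the annotated starts of these 3 genes are shown. They were taken from the RefSeq promoter table of GRCm38.p6 and are written 5′ to 3′ on the strand of the gene, ending at the base before the gene, with CpG dinucleotides in capitals. They lie at chr2:69586066-69586279 on the minus strand for Lrp2, chr5:35105767-35105949 on the minus strand for Lrpap1 and chr19:27216234-27216483 on the plus strand for Vldlr.
Lrp2: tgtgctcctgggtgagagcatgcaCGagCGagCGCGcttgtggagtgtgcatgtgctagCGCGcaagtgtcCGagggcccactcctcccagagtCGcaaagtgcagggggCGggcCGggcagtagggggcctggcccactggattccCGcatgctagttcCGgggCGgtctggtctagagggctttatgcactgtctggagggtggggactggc
Lrpap1: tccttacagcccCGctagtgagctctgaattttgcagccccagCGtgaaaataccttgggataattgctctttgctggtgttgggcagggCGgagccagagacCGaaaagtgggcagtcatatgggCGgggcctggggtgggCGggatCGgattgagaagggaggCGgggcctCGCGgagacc
Vldlr: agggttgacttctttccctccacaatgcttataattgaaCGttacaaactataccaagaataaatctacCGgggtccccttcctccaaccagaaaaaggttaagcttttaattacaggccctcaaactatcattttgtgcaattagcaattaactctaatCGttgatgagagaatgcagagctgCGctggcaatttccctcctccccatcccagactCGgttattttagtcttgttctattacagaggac
The stretch of Lrp2 held 13 CpG in 214 bases, that of Lrpap1 10 in 183 bases and that of Vldlr 5 in 250 bases. In the whole 300-base windows of the table (250 bases before and 50 after a start), the window of Lrp2 had 20 CpG, and 26.5% of all 32851 windows had at least as many, against a median of 7. Vldlr had 8 CpG in the window of the start shown. A second Vldlr window, at chr19:27216770-27217069, had 23. Of the 9 genes, 6 were matched in that table, with 10 windows. Lrp4, Lrp5 and Lrp6 were not matched. The motif CACGTG, the E-box that Myc with Max can bind and which reads the same on both strands, was in 1 of the 10 windows, at Sorl1, and in 7.15% of all windows. The motif TATAAA, searched on both strands, was in 0 of the 10 and in 13.6% of all. A window without these letters says nothing about binding elsewhere, and methylation was not measured.

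Lrp2 (ENSMUSG00000027070, chromosome 2, 69424340 to 69586065, minus strand, GRCm38), the large endocytic receptor megalin, had 3, 12 and 0 counts in Myc_Utx lines 2A, 2B and 2D. In Myc_p53 lines 1, 2 and 3 it had 3402, 909 and 3840 counts. The groups did not overlap, as the rule for choosing this gene requires. In CPM the levels were 0.598, 2.25 and 0 against 537.6, 168.5 and 547.5, with means of 0.948 ± 1.16 (SD, n = 3) and 417.9 ± 216.0 (SD, n = 3). The lowest Myc_p53 line was thus 75.0-fold above the highest Myc_Utx line. The exact two-sided Poisson 95% interval was 0 to 0.821 CPM for line 2D, where 3 counts would be 0.668 CPM, and 1.16 to 3.92 CPM for line 2B, the highest of its group, both for counting error only. Within Myc_p53 lines the highest level was 3.25 times the lowest, and line 2 was the low one.

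Scaled per kilobase of transcript (RPKM), the level of Lrp2 exceeded that of 86%, 56% and 86.2% of tested genes in Myc_p53 lines 1, 2 and 3, and that of 1.17%, 1.81% and 0% in Myc_Utx lines 2A, 2B and 2D. Lrp2 was therefore in the upper part of the tested range in Myc_p53 lines 1 and 3, near its middle in line 2 and near its bottom in every Myc_Utx line. No other annotated gene overlapped it.

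Marker sums of several cell types were compared with Lrp2 line by line. Myc_p53 line 2, with the lowest Lrp2 of its group, also had the lowest summed hepatocyte markers (59.1 CPM against 788.9 and 1230), the lowest cholangiocyte markers (152.9 against 1380 and 1462 CPM over 5 genes) and the highest fibroblast or stellate cell markers (3151 against 35.9 and 500.5 CPM over 8 genes). In Myc_Utx lines the hepatocyte sum was 29.9 to 94.8 CPM and the cholangiocyte sum 510.4 to 1441 CPM, so both overlapped between groups. The fibroblast sum there was 1946 to 2679 CPM, most of it Col3a1 and Pdgfrb, with Lum at no more than 1 count in any line. Macrophage markers split the groups as Lrp2 did. Their sum over 9 genes was 2.79, 6.18 and 5.34 CPM in Myc_Utx lines and 100.2, 41.3 and 112.6 CPM in Myc_p53 lines. Of these 9 markers, 8 were lower in every Myc_Utx line than in any Myc_p53 line, and 7 had no more than 3 counts in any Myc_Utx line. Of the 6 markers that were tested, 5 were lower in this way, beside 20.9% of all tested genes. Lyz2 and Csf1r had the most counts in Myc_p53 lines. They and C1qa, C1qb and C1qc passed the low-count filter through Myc_p53 lines alone, so these 5 could come out only as lower. The share of 20.9% is thus no fair measure for them, and no tests of them are given. Endothelial markers summed to no more than 1.42 CPM in any line. Of 6 kidney proximal tubule markers, Slc34a1, Slc22a6 and Slc22a8 were at 0 in all 6 lines and only Aqp1 exceeded 3 counts, with sums of 1.11 to 23.1 CPM in Myc_Utx lines and 9.84 to 34.9 CPM in Myc_p53 lines. In bulk RNA, fewer cells of a type and less RNA per cell cannot be told apart, and the part of the other cell types in the Lrp2 difference was not tested.

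**Figure D1:**
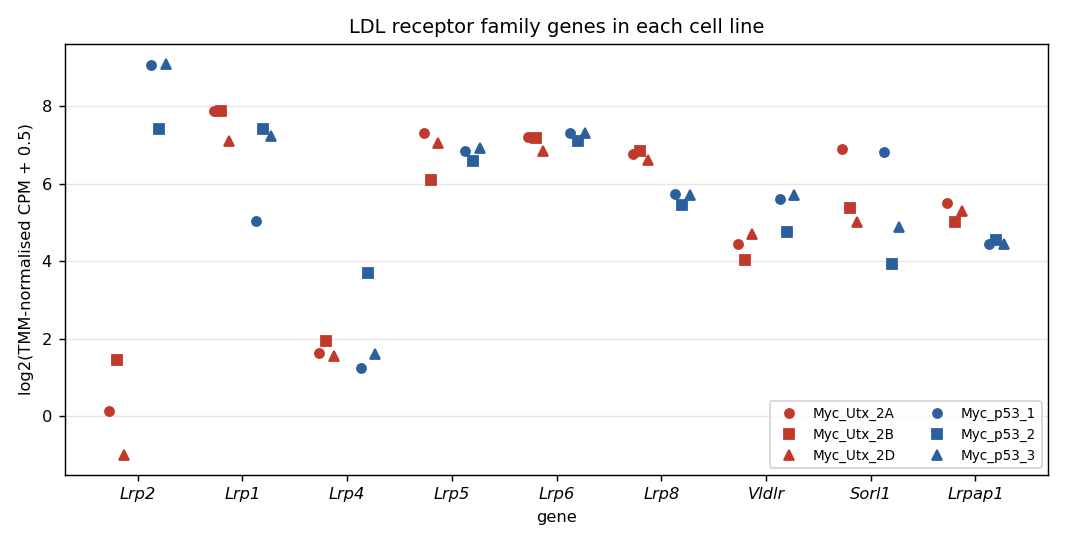
Level of each of the 9 genes in each of the 6 cell lines, as log2 of TMM-normalised CPM plus 0.5 on the y axis, red for Myc_Utx and blue for Myc_p53, with 1 symbol per line. Lrp2 spans 0 to 2.25 CPM in Myc_Utx lines and 168.5 to 547.5 CPM in Myc_p53 lines, Lrp8 and Lrpap1 are higher and Vldlr is lower in every Myc_Utx line, and the other 5 genes overlap between groups.

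The other 8 genes all passed the filter on low counts. Of them, 2 (Lrp8 and Lrpap1) were higher and 0 were lower in Myc_Utx lines at an adjusted p under 0.05 in edgeR, against 6.99% and 7.69% of all genes tested. At an unadjusted p under 0.05 there were 3, with Vldlr as the third, against 35% of all tested genes, and DESeq2 called 2 higher and 1 lower. The groups did not overlap for these 3 genes and overlapped for the other 5, while 42% of all tested genes did not overlap. The median log2 fold change of the 8 was 0.20, and that of all tested genes -0.012. A share of 2 or 3 genes in 8 is a small count, and it is given as a description of these genes.

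Of the receptors of the reelin signal, Lrp8 (ApoER2) was higher in Myc_Utx lines, while Vldlr had a log2 fold change below 0 that did not pass the test. Lrp8 (chromosome 4, 107802261 to 107876840) had 109.3, 114.6 and 96.6 CPM in Myc_Utx lines and 52.6, 43.2 and 52.0 CPM in Myc_p53 lines. Every Myc_Utx line was above every Myc_p53 line, and the lines of 1 group lay close together, within a factor of 1.22. The means were 106.8 ± 9.22 and 49.3 ± 5.29 CPM (SD, n = 3 each), a 2.17-fold difference, with a log2 fold change of 1.12 (SE 0.14, 95% interval 0.784 to 1.447, adjusted p = 0.0141, edgeR). The exact two-sided permutation p of 0.1 was the smallest that 3 lines against 3 allow, as it was for Vldlr and Lrpap1. Without Myc_Utx line 2A, 2B or 2D or Myc_p53 line 3, the adjusted p of Lrp8 was 0.0623, 0.0580, 0.0510 or 0.0530, with log2 fold changes of 1.079 to 1.201. Antisense genes within Lrp8 had at most 8 counts over all lines, and whether the counting used strand is not known.

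Vldlr (chromosome 19, 27216484 to 27254231), which takes up triglyceride-rich lipoproteins and shares reelin with Lrp8, had 21.1, 15.7 and 25.6 CPM in Myc_Utx lines and 48.2, 26.7 and 51.8 CPM in Myc_p53 lines. All Myc_Utx lines lay below all Myc_p53 lines, but line 2D and Myc_p53 line 2 were close. The means were 20.8 ± 4.95 and 42.2 ± 13.6 CPM (SD, n = 3 each), and the log2 fold change of -1.02 (SE 0.31, 95% interval -1.769 to -0.274) did not pass edgeR's test (adjusted p = 0.0706). It passed in DESeq2 (adjusted p = 0.0273) and without Myc_p53 line 2 (log2 fold change -1.262, adjusted p = 0.0264, edgeR). The ratio of Lrp8 to Vldlr in RPKM was 4.95, 6.98 and 3.61 in Myc_Utx lines and 1.05, 1.55 and 0.963 in Myc_p53 lines. Lrp8 was thus the more abundant reelin receptor in each Myc_Utx line, while the levels of the pair were closer in Myc_p53 lines.

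Of the signalling genes named in the list of reelin and agrin partners, 7 of 11 were tested and 0 passed in either direction in edgeR (4 at an unadjusted p under 0.05, and 0 higher and 2 lower in DESeq2), with a median log2 fold change of -0.40. Among all tested genes 14.7% passed, and 35% had an unadjusted p under 0.05. Dab1, the adaptor that carries the reelin signal in neurons, had no counts in any line. The most abundant of the list were Pafah1b1 (log2 fold change -0.39, adjusted p = 0.0926, edgeR), which encodes Lis1, and Rapgef1 (-0.22, adjusted p = 0.221, edgeR), which encodes an exchange factor for Rap1. Reln itself had 2 counts in Myc_p53 line 1, 1 in line 3 and none elsewhere.

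Lrpap1 (chromosome 5, 35091501 to 35105766) encodes RAP, which binds the receptors in the endoplasmic reticulum and keeps ligands off them until they leave it. Its levels were 44.5, 31.8 and 39.0 CPM in Myc_Utx lines and 21.3, 22.8 and 21.2 CPM in Myc_p53 lines. The Myc_p53 lines were almost equal, within a factor of 1.07, and all lay below the Myc_Utx lines. The means of 38.4 ± 6.34 and 21.8 ± 0.873 CPM (SD, n = 3 each) differed 1.76-fold, with a log2 fold change of 0.82 (SE 0.17, 95% interval 0.397 to 1.238, adjusted p = 0.0326, edgeR). With 1 line left out the log2 fold change was 0.718 to 0.953, and the adjusted p was under 0.05 without Myc_p53 line 2 (0.0433) and 0.0673 to 0.106 without any other line. Relative to the summed RPKM of the receptors other than Lrp2, Lrpap1 was at 0.171, 0.164 and 0.214 in Myc_Utx lines and 0.115, 0.143 and 0.114 in Myc_p53 lines. A ratio with Lrp2 in the sum is not tested here, because Lrp2 was chosen for its low values in Myc_Utx lines. Without Lrp2, every Myc_Utx line had a higher RPKM ratio of chaperone to receptors than any Myc_p53 line (exact two-sided permutation p = 0.1). This ratio has no offset for transcript length, and the receptors are longer than Lrpap1. With that offset the log2 fold change of Lrpap1 went from 0.818 to 0.834. Those of receptors rose more, for example Lrp1 from 0.777 to 1.116, Lrp5 from 0.112 to 0.353 and Lrp6 from -0.167 to 0.131. The ratio was not computed with the offset.

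Mesd, which encodes the chaperone that folds the beta-propellers of Lrp5 and Lrp6, was also higher in Myc_Utx lines, with 285, 281 and 231 counts against 184, 147 and 205. In CPM it was at 53.6 ± 2.84 and 28.5 ± 1.10 (SD, n = 3 each), and its log2 fold change was 0.91 (SE 0.13, adjusted p = 0.0164, edgeR). Mesd belongs to a list of 17 Wnt co-receptor regulators, of which 10 were tested, 2 were higher and 0 lower in edgeR (3 at an unadjusted p under 0.05, beside 35% of all tested genes, and 2 higher and 0 lower in DESeq2), with a median log2 fold change of -0.036. Of all tested genes 6.99% were higher. The second gene was Csnk1g2 (log2 fold change 0.47, adjusted p = 0.0368, edgeR), a membrane-bound casein kinase 1 that phosphorylates Lrp6. The secreted inhibitors Dkk1, Dkk2, Dkk4 and Sost had 0 to 8 counts in any line, and Sostdc1 and Kremen2 had none.

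The Wnt co-receptors themselves did not pass the test. Lrp6 (chromosome 6, 134446476 to 134566965) had 145.8, 143.8 and 114.2 CPM in Myc_Utx lines and 159.1, 135.7 and 158.6 CPM in Myc_p53 lines. Its levels varied little within either group, by 1.28-fold and 1.17-fold, and its difference was narrowly bounded, with a log2 fold change of -0.17 (95% interval -0.501 to 0.167, adjusted p = 0.429, edgeR), or 0.13 once an offset for transcript length was fitted. Lrp5 (chromosome 19, 3584828 to 3686564) had 158.2, 68.3 and 131.2 CPM against 115.0, 95.8 and 119.8 CPM, a log2 fold change of 0.11 (95% interval -0.611 to 0.836, adjusted p = 0.813, edgeR), or -0.126 without Myc_Utx line 2A. Lrp5 thus varied more among Myc_Utx lines (2.31-fold) than among Myc_p53 lines (1.25-fold). The ratio of Lrp6 to Lrp5 in RPKM was 0.985, 1.008 and 0.943 in Myc_p53 lines, whereas it ranged from 0.620 to 1.499 in Myc_Utx lines, where line 2B stood apart.

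Lrp1, Sorl1 and Lrp4 differed more between lines of 1 group than between the groups. Lrp1 (chromosome 10, 127538161 to 127621148), the receptor for remnants, proteases and alpha-2-macroglobulin, had 233.1, 234.1 and 137.0 CPM in Myc_Utx lines and 32.1, 171.1 and 149.7 CPM in Myc_p53 lines. Its log2 fold change was 0.78 (SE 0.58, 95% interval -0.622 to 2.176, adjusted p = 0.381, edgeR). The low level in Myc_p53 line 1 stood beside the lowest fibroblast marker sum of all lines, 35.9 CPM, and its part in that level was not tested. Without this line the log2 fold change of Lrp1 was 0.323, the lowest with any line left out.

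Sorl1 (chromosome 9, 41964720 to 42124297), a receptor with a Vps10 domain that sorts cargo between the Golgi apparatus and endosomes, had 119.3, 40.6 and 31.8 CPM in Myc_Utx lines and 113.1, 14.8 and 29.1 CPM in Myc_p53 lines. Each group held 1 line with a high level, so the spread within Myc_p53 lines (7.63-fold) was far wider than the log2 fold change of 0.29 (SE 0.83, adjusted p = 0.829, edgeR), which turned to -0.511 without line 2A. Lrp4 (chromosome 2, 91457511 to 91513779), the agrin receptor that activates MuSK and a binding partner of sclerostin, was the lowest of the others, with 13, 18 and 11 counts in Myc_Utx lines and 12, 67 and 18 in Myc_p53 lines. Its log2 fold change of -0.98 (SE 0.76, adjusted p = 0.393, edgeR) became 0.33 without Myc_p53 line 2, the only line above 18 counts.

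**Figure D2:**
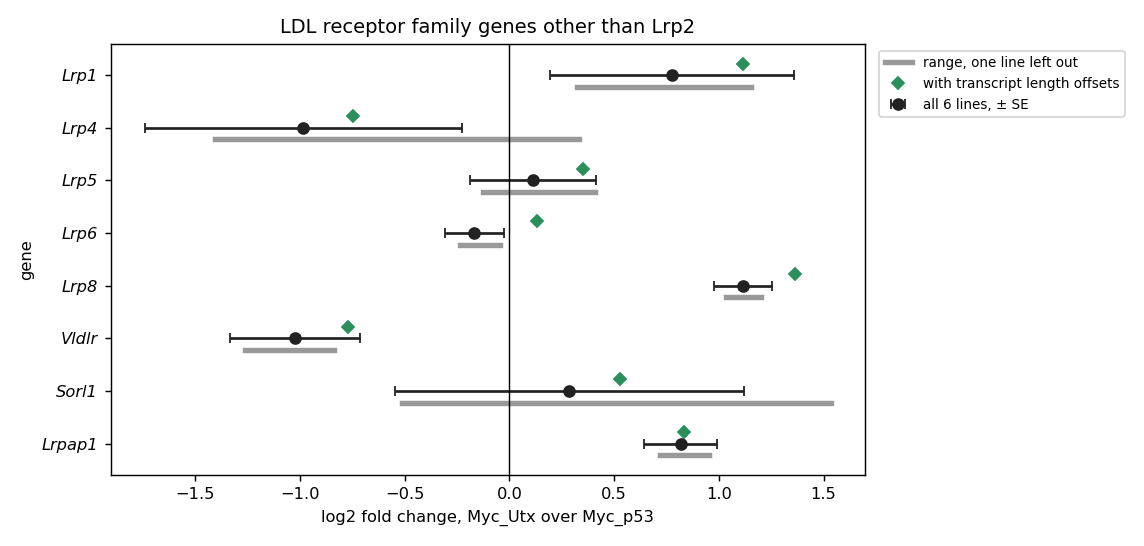
Log2 fold change of the 8 genes other than Lrp2, Myc_Utx over Myc_p53, on the x axis, with circles and SE bars for all 6 lines, grey bars for the range with 1 line left out, and diamonds for the fit with an offset for transcript length. Lrp8 (1.12) and Lrpap1 (0.82) stay above 0 and Vldlr (-1.02) below 0 in each of these fits, while the grey bars of Lrp4, Lrp5 and Sorl1 cross 0 and the diamond of Lrp6 lies on the other side of 0.

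The receptors have long transcripts, 9738 to 17717 bases in the table, and 89.3% to 98.7% of tested genes were shorter. Length moved with the outcome in these libraries, because Spearman's rho between log2 fold change and transcript length was -0.249 across the 11510 genes, which are not independent replicates, so long transcripts tended to read lower in Myc_Utx lines. With a length offset for each line the rho was -0.010. Lrpap1, at 4116 bases, was near the middle. Lrp8 and Lrpap1 kept their calls with the offsets, and no receptor gained one.

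Compared per length, the order of the genes differed between the groups. In Myc_Utx lines Lrp5 (12.2 ± 4.73 RPKM), Lrp1 (11.4 ± 3.15), Lrp8 (10.2 ± 0.877), Lrp6 (9.85 ± 1.29), Lrpap1 (9.34 ± 1.54) and Sorl1 (5.65 ± 4.25; SD, n = 3 each) followed each other with overlapping ranges. Vldlr (2.07 ± 0.491 RPKM), Lrp4 (0.267 ± 0.0472) and Lrp2 (0.0568 ± 0.0697) came after them, each below the range of the one before. In Myc_p53 lines Lrp2 had the highest mean (25.02 ± 12.9 RPKM), but its range overlapped those of Lrp5 (11.3 ± 1.30) and Lrp6 (11.1 ± 0.978), because of line 2. Lrp1 (6.64 ± 4.23 RPKM), Lrpap1 (5.30 ± 0.212), Lrp8 (4.69 ± 0.503), Sorl1 (4.62 ± 4.69) and Vldlr (4.19 ± 1.35) came next, with the ranges of Lrp1 and Sorl1 spanning most of the others, and Lrp4 (0.536 ± 0.561) was last.

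Lrp2 made up 39%, 18.6% and 39.4% of the summed RPKM of the 9 genes in Myc_p53 lines 1, 2 and 3, and 0.0483%, 0.245% and 0% in Myc_Utx lines 2A, 2B and 2D. The 8 receptors together had 63.4, 47.3 and 44.3 RPKM in Myc_Utx lines and 77.4, 48.8 and 78.0 RPKM in Myc_p53 lines. Without Lrp2 the sums were 63.3, 47.1 and 44.3 against 45.2, 38.7 and 45.3 RPKM. The summed receptor mRNA overlapped between groups with Lrp2 counted and also without it, although in the latter case the Myc_Utx mean (51.6 RPKM) was above the Myc_p53 mean (43.1 RPKM).

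**Figure D3:**
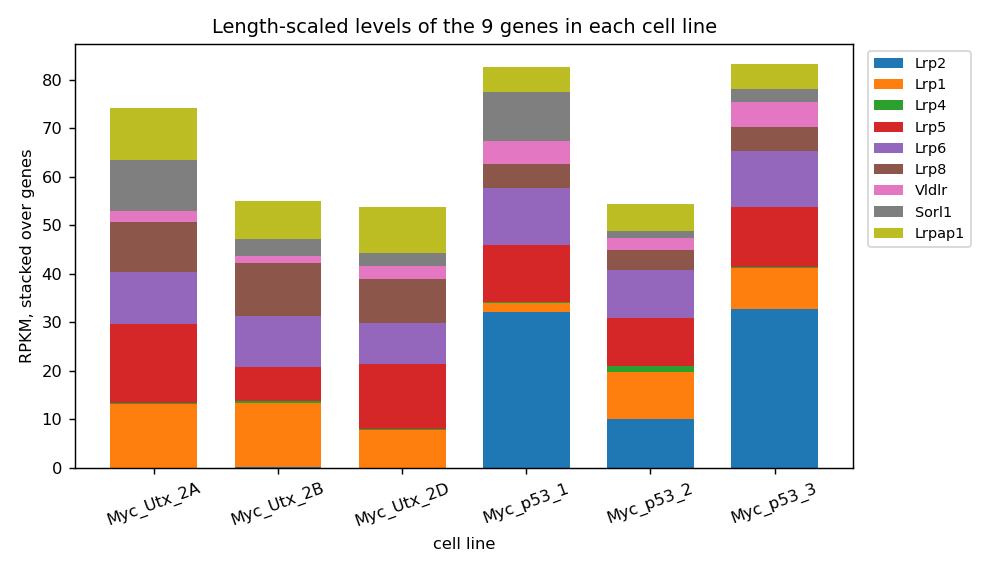
Stacked RPKM of the 9 genes in each cell line, with 1 bar per line on the x axis and RPKM from 0 on the y axis. Lrp2 fills 18.6% to 39.4% of each Myc_p53 bar and at most 0.245% of a Myc_Utx bar.

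The partners of Lrp2 in endocytosis were examined next. Cubilin (Cubn), the co-receptor that relies on Lrp2 for uptake, had 3, 6 and 8 counts in Myc_Utx lines and 31, 21 and 63 in Myc_p53 lines, a log2 fold change of -2.34. It reached the filter's minimum in 0 Myc_Utx lines and all 3 Myc_p53 lines. Cubn could thus enter the test only with a lower level in Myc_Utx lines, and no test of it is given. Amn, which anchors cubilin, had 1 count in each Myc_Utx line and 6, 3 and 6 in Myc_p53 lines, too few to be tested. Myo6, the myosin that moves endocytic vesicles inward along actin, fell as well, from 1221, 468 and 763 counts in Myc_p53 lines to 244, 132 and 127 in Myc_Utx lines (log2 fold change -1.93, SE 0.39, adjusted p = 0.0287, edgeR). Dab2, the clathrin adaptor that binds the tail of Lrp2, overlapped between groups (log2 fold change -0.26, adjusted p = 0.733, edgeR).

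In the whole list of 18 endocytic adaptors and coat genes, 17 were tested, of which 2 were higher and 3 lower (10 at an unadjusted p under 0.05, and 3 higher and 4 lower in DESeq2), with a median log2 fold change of -0.101. Cubn is among the 3 lower and could be called in that direction only. The shares among all tested genes were 6.99% higher, 7.69% lower and 35% at an unadjusted p under 0.05. Subunits of the AP-2 complex, which links cargo to clathrin, changed in both directions. Ap2s1 (log2 fold change 0.68, adjusted p = 0.0361) and Ap2a1 (0.49, adjusted p = 0.0278) were higher and Ap2b1 (-0.44, adjusted p = 0.0448, all by edgeR) was lower. The 8 retromer and GGA genes sort receptors such as Sorl1 between endosomes and the Golgi apparatus. Of these 8, 1 was higher (Gga1, log2 fold change 0.48, adjusted p = 0.0455) and 1 lower (Gga3, -0.73, adjusted p = 0.0416, both by edgeR), with a median of -0.098. At an unadjusted p under 0.05 there were 5, beside 35% of all tested genes, and DESeq2 gave 1 higher and 3 lower.

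Among 12 related receptors, 8 were tested and 0 passed in either direction in edgeR (3 at an unadjusted p under 0.05, beside 35% of all tested genes, and 0 higher and 2 lower in DESeq2), with a median log2 fold change of -0.206. Lrp1b, the close relative of Lrp1, had no counts in any line, nor had Ldlrad1, Sorcs1 and Sorcs3. The most abundant were Lrp10, at 102.7 ± 1.87 CPM in Myc_Utx and 79.1 ± 9.48 CPM in Myc_p53 lines (SD, n = 3 each; log2 fold change 0.38, adjusted p = 0.0870, edgeR), and Ldlrad3 (-0.19, adjusted p = 0.722, edgeR).

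Of the 6 lists of partner genes, that of the ligands had the lowest median and the lowest single log2 fold change, and no test compared the lists. Of 24 listed, 19 were tested, and 0 were higher and 5 lower in Myc_Utx lines in edgeR. Among all tested genes these shares were 6.99% and 7.69%. At an unadjusted p under 0.05 there were 8, beside 35% of all tested genes, and DESeq2 gave 0 higher and 8 lower. Of the 19 log2 fold changes, 3 were above 0, with a median of -1.20. The complement component C3 had 3, 12 and 9 counts in Myc_Utx lines and 1371, 52 and 490 in Myc_p53 lines (log2 fold change -5.91, SE 1.25, adjusted p = 0.0318, edgeR). Apob, the structural protein of chylomicrons and VLDL, had 0, 6 and 1 counts against 88, 71 and 378 (log2 fold change -5.80). Clu, an extracellular chaperone that Lrp2 takes up, had 57, 120 and 146 counts against 3051, 811 and 2201 (-3.84, SE 0.56, adjusted p = 0.0169, edgeR). Apob, which is among the 5 counted as lower, reached the filter's minimum in Myc_p53 lines alone. It could be called only as lower, so no test of it is given. For C3 and Clu, as for Lrp2, line 2 was clearly the lowest of the Myc_p53 lines.

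Apoe, the ligand on lipoproteins that most receptors of the family bind, had 25, 32 and 13 counts in Myc_Utx lines and 146, 121 and 152 in Myc_p53 lines (log2 fold change -2.26, SE 0.30, adjusted p = 0.0164, edgeR). Plat, tissue plasminogen activator, had 79, 121 and 40 counts against 341, 286 and 781 (-2.20, SE 0.45, adjusted p = 0.0287, edgeR). Apoe and C3 are also made by macrophages, whose markers summed to 2.79 to 6.18 CPM in Myc_Utx and 41.3 to 112.6 CPM in Myc_p53 lines. Apob and C3 are made by hepatocytes, whose markers summed to 29.9 to 94.8 and 59.1 to 1230 CPM. Krt8 and Krt18 made up most of the highest hepatocyte sums, and Alb overlapped between groups. The part of these cell types in the ligand differences was not tested. The lists of related receptors, adaptors and coat, sorting, ligands, Wnt regulators and reelin partners held 8, 17, 8, 19, 10 and 7 tested genes. Across all 6 lists, 5 genes were higher and 9 lower, with Cubn and Apob among the 9. Among all tested genes 6.99% were higher and 7.69% lower. The lower count was 7 among genes with at least 10 counts in every line and 6 with transcript length offsets. The higher and lower counts were both 0 without Myc_Utx line 2A, 2B or 2D or Myc_p53 line 3. The whole table also gave few calls then, 3 to 63 higher and 1 to 57 lower.

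**Figure D4:**
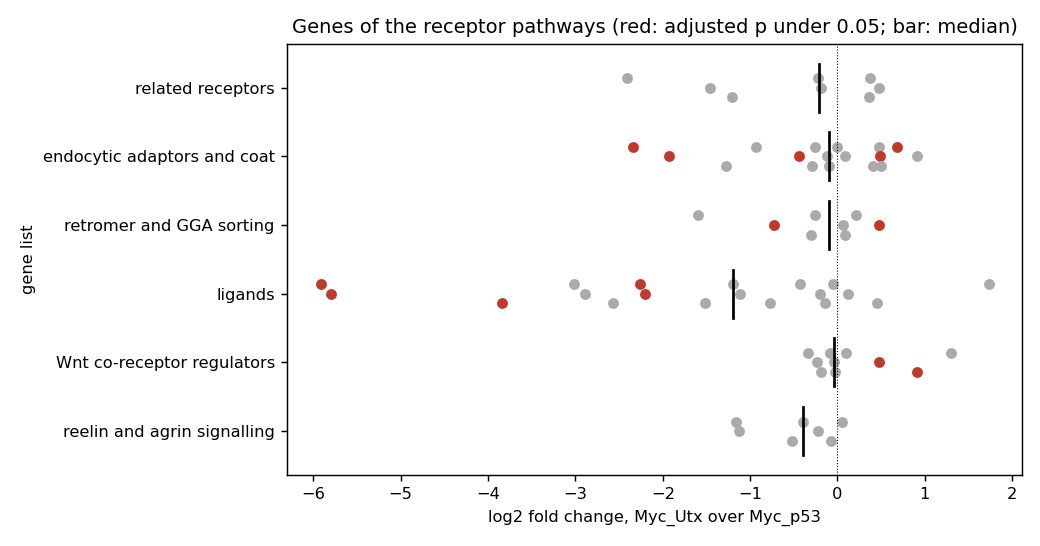
Log2 fold change, Myc_Utx over Myc_p53, on the x axis for each tested gene of the 6 lists, with 1 point per gene, red points for an adjusted p under 0.05 and a black bar at the median of a list. The ligands reach furthest to the left, with C3 at -5.91 and a median of -1.20, while the medians of the other 5 lists lie between -0.40 and -0.036. Cubn and Apob, also in red, could enter the test only as lower.

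Genes around Lrp2 on chromosome 2 differed by less than Lrp2 itself. Within 1000000 bases on either side of the gene the table held 46 others, of which 14 were tested, 0 were higher and 2 lower in edgeR (3 at an unadjusted p under 0.05, and 0 higher and 2 lower in DESeq2), with a median log2 fold change of -0.063. Among all tested genes 7.69% were lower and 35% had an unadjusted p under 0.05. The nearest tested gene was Dhrs9, 19.8 kb from Lrp2, with 15, 4 and 0 counts in Myc_Utx lines and 14, 20 and 68 in Myc_p53 lines (log2 fold change -2.03, SE 1.07, adjusted p = 0.223, edgeR). It had the lowest log2 fold change of the 14, but its groups overlapped. On the other side Bbs5, 61.1 kb away, had 30, 37 and 38 counts against 46, 50 and 73 (-0.33, adjusted p = 0.425, edgeR). Cers6, a ceramide synthase, had 206, 216 and 146 counts against 549, 535 and 548 (-1.21, SE 0.16, adjusted p = 0.0164, edgeR), and its start lay 724.6 kb downstream of the Lrp2 start. Ubr3, a ubiquitin ligase whose start lay upstream, at -311.2 kb from the Lrp2 start, had a log2 fold change of -0.70 (SE 0.10, adjusted p = 0.0164, edgeR). The highest value was that of Stk39 (1.23, adjusted p = 0.174, edgeR). Neither Cers6 nor Ubr3 passed without Myc_Utx line 2A, 2B or 2D.

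**Figure D5:**
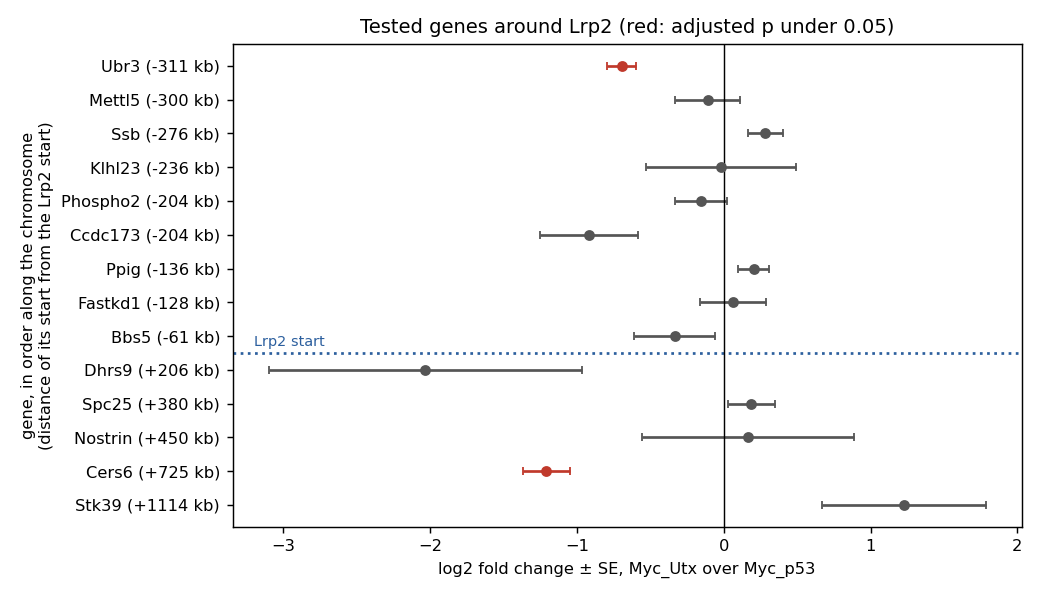
Log2 fold change with SE, Myc_Utx over Myc_p53, on the x axis for the 14 tested genes around Lrp2, ordered along the chromosome on the y axis with the distance of their start from the Lrp2 start, red for an adjusted p under 0.05. Cers6 (-1.21) and Ubr3 (-0.70) are the 2 that passed, and all 14 lie between -2.03 and 1.23.

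The genes whose pattern over the 6 lines was most like that of Lrp2, by Pearson's r of log2 CPM with a prior count of 2, were Zfp871 (r = 0.9987), Nhlrc2 (0.9972), Catsper2 (0.9962), Hif1an (0.9962) and Ikzf2 (0.9952). Their log2 fold changes were smaller than that of Lrp2, at -0.92, -0.96, -1.80, -0.85 and -1.78 in the same order. With 6 lines in 2 separated groups such values are easily reached, and 357 of the 11510 tested genes had an r above 0.95.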

How the data were processed

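RNA of 6 mouse liver tumour cell lines was sequenced, with 3 lines labelled Myc_Utx and 3 labelled Myc_p53. The authors deposited raw read counts per Ensembl gene, without normalization. The labels name Trimmomatic 0.36, STAR 2.5.3a, featureCounts 1.6.3, DESeq2 1.20.0 and GRCm38, and the methods name another counter (HTSeq). The strand setting of the counting is not given in the sources used here. Coordinates equalled those of GENCODE M21 for 95.9% of 53465 genes. Groups came from the labels, and each line is 1 biological replicate, from a different mouse by the series' design text. One sentence of the methods names a guide against another gene for the first group, where the labels and the design text give Utx (Kdm6a), and these were followed. The 9 genes, the gene lists and the tests were chosen with earlier results of these data known.

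The main test was the quasi-likelihood F test of edgeR 4.0.16 (R 4.3.3) on all 6 lines, with filterByExpr (minimum count 10), TMM scaling and Benjamini-Hochberg adjustment over the 11510 genes tested. A log2 fold change above 0 means higher in Myc_Utx lines, and its SE was derived from the F statistic. With a common dispersion of 0.112, the biological coefficient of variation was 33.4%. RPKM used the transcript length in the table. Alternatives were size factors of DESeq2, scaling to total counts only, leaving out the filter, requiring 10 counts in each of the lines, DESeq2 1.42.0 as the test, per-line offsets from a spline of transcript length with 5 degrees of freedom (MASS 7.3.60.0.1), and each line left out in turn. The procedure was tested on simulated data. Named genes were the 9 genes, tested genes around Lrp2, the 5 genes most like Lrp2, Kdm6a, and of each list those past an adjusted p of 0.05 or else the 2 most abundant. Further list members named for low or absent counts or known roles (Amn, Dab2, Dab1, Reln, the Wnt inhibitors, Lrp1b, Ldlrad1, Sorcs1, Sorcs3 and single markers) were chosen after their values were seen. The level of the gene disrupted in Myc_p53 lines is not reported here.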

Additional observations from a re-analysis of the deposited data

How the results depend on the processing

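Under the 6 alternatives other than leaving out a line, Lrp8 (adjusted p up to 0.0169) and Lrpap1 (up to 0.0470) stayed past the threshold and no other of the 8 genes was called higher. Total counts only and the transcript length offsets each gave 3 genes of the 6 lists as higher, against 5. DESeq2 gave 1281 genes higher and 1578 lower over the whole table, 1 of the 8 genes lower (Vldlr) and 19 list genes lower, against 9. Reversed signs were those of Lrp6 (0.131 with length offsets), Lrp5 (-0.126 without line 2A), Sorl1 (-0.511 without line 2A, -0.148 without Myc_p53 line 2 and -0.010 without line 3) and Lrp4 (0.33 without Myc_p53 line 2), none of them past the threshold in any fit. The cause was not tested. With 1 line left out, the number of genes called higher was 3 to 836 and lower 1 to 1118 over the whole table, 0 to 2 and 0 to 1 among the 8 genes, 0 to 4 and 0 to 11 in the lists, and 0 to 1 and 0 to 2 around Lrp2. Over the whole table the fewest came without Myc_Utx line 2A and the most without Myc_p53 line 2. With 1 line left out, log2 fold changes were -1.406 to 0.33 for Lrp4, -0.126 to 0.409 for Lrp5 and -0.511 to 1.534 for Sorl1. Of the 8 genes, 2 or 3 had an unadjusted p under 0.05 in every fit. A minimum of 10 counts in every line removed Lrp2, so that setting gave no value for it. In the other fits its log2 fold change, -8.68 with all lines, ranged from -10.262 to -8.14. No paired analysis was possible because the labels give the groups no shared replicate numbers. Depth limits genes such as Lrp4, Cubn and Amn, with under 100 counts in every line.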
